A study of Mus musculus with 30 samples.

Results

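The splicing regulators described here are families of RNA-binding proteins, among them the SR, hnRNP and Rbfox proteins, read on microarrays of the newborn female mouse hypothalamus. Members were all probe sets whose only gene symbol in the platform's annotation began with Srsf or Hnrnp, or was Tra2a, Tra2b, Sfpq, Ptbp1, Ptbp2, Rbfox1, Rbfox2, Rbfox3, Nova1, Celf1, Celf2 or Mbnl2. This gave 143 probe sets of 41 genes, out of 45037 probe sets and 18193 named genes on the array, and each probe set was kept apart. They fell into 58 probe sets of 19 hnRNP genes, 44 of 12 SR and Tra2 genes, 11 of 3 genes (Ptbp1, Ptbp2 and Sfpq) and 30 of 7 genes of the Rbfox, Nova, Celf and Mbnl families. Of the 143, 131 were bright enough to be tested, and these covered all 41 genes. The 12 left out were dim probe sets of Celf1, Celf2, Hnrnpc, Hnrnpl, Mbnl2, Ptbp1, Srsf1, Tra2a and Tra2b. A further 7 probe sets that list Hnrnpa1 or Hnrnpa3 together with other genes were not members.

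Female C57BL/6J pups were given 7.5 μg of estradiol benzoate (EB, an estrogen ester) under the skin on the day of birth, or the peanut oil vehicle alone. The hypothalamus was taken 1, 3, 6, 12 or 24 h later, and the RNA of 1 animal went on each array. There were 3 EB-treated and 3 vehicle-treated animals at each of 5 times, hence 10 groups and 30 arrays. All animals were female. The sources used here do not say which pups shared a litter, so p-values measure the spread between these animals. Time since injection, age and hour of the day cannot be told apart in this design.

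Splicing removes introns from a transcript and joins its exons, and the regulators choose which exons are kept. SR proteins, which carry arginine and serine repeats, mostly bind exons and favour their inclusion, as do the related Tra2 proteins, while hnRNP proteins often have the opposite effect and also package nascent RNA. Rbfox, Nova, Celf, Mbnl and Ptbp proteins set tissue-specific patterns of splicing, several of them in neurons. Many of these genes control their own level through alternative exons or retained introns, so that one gene makes several transcripts, and probe sets of one gene can therefore read different transcripts. A probe set here is a set of short probes with 1 summary signal, and in its name _at marks probes unique to a transcript, _a_at probes shared by transcripts of 1 gene, _s_at probes shared by transcripts that may belong to several genes, and _x_at probes that may bind unrelated RNA. Among the members these endings were on 86, 30, 14 and 13 probe sets.

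The start regions of 3 genes whose probe sets recur in the results are shown first. Each runs 5′ to 3′ on the strand of the gene, from 250 bases before to 50 bases after the annotated start (RefSeq, build GRCm38.p6), and capitals mark the letters CCAAT or GGGCGG (the core of a GC box) found on either strand. The Srsf1 window lies at chr11:88047123-88047422 on the plus strand, the Srsf2 window at chr11:116853045-116853344 on the minus strand and the Hnrnpu window at chr1:178337766-178338065 on the minus strand.
Srsf1: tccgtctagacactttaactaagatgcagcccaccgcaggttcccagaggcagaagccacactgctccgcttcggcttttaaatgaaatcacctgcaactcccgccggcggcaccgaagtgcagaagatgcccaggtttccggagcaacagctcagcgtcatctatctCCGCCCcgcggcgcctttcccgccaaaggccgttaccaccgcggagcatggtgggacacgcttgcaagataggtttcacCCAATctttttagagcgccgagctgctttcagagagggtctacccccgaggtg
Srsf2: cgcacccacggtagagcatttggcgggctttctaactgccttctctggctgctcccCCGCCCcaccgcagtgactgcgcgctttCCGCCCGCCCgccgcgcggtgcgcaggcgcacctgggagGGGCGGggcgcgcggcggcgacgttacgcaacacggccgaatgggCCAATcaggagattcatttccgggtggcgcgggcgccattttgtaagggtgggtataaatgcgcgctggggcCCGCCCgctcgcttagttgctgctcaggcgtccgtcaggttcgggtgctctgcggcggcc
Hnrnpu: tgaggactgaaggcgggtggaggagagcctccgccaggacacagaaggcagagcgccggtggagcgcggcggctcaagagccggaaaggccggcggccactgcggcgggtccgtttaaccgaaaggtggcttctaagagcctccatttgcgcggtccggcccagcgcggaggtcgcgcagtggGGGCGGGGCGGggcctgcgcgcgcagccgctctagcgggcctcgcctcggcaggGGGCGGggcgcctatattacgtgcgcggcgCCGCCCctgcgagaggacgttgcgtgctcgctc
The Srsf1 window held 1 match to CCAAT and 1 to GGGCGG, the Srsf2 window 1 and 5, and the Hnrnpu window 4 matches to GGGCGG. A pair of the matches overlaps in the Srsf2 window, and another pair in the Hnrnpu window. RefSeq windows were at hand for 38 of the 41 genes (55 windows of 300 bases). Hnrnpll, Hnrnpul2 and Rbfox2 were not among them. GGGCGG occurred on either strand in 40 of the 55 windows (72.7%), against 35.7% of all 32851 windows in the table, and CCAAT in 25 (45.5%), against 37.4%. The palindromic estrogen response element GGTCANNNTGACC was in 0 of the 55 windows, against 0.07% of all windows. Its half-site AGGTCA was in 5 (9.09%), against 16.3% of all windows, in Celf2, Hnrnph1, Ptbp2, Srsf3 and Srsf9. The cyclic AMP response element TGACGTCA was in 1 window (1.82%), that of Tra2a, against 1.79%. These are counts of letters in short windows and say nothing of whether a factor binds.

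Neuronal markers were present: 12 of 12 pan-neuronal and 13 of 14 hypothalamic marker genes passed the signal filter. Arrays differed in brightness, with median signals of 52.9 to 62.5 on the EB-treated and 61.5 to 66.9 on the vehicle-treated arrays at 12 h, against 28.0 to 44.0 on all others, so signals were scaled to a common median and every level given is a scaled signal unless said otherwise. At 24 h, genes marking the fibroblasts of the leptomeninges were low in EB-treated animals (16 of 17 lower, median log2 difference -2.33). Their summed scaled signal was 630 to 5160 on the EB-treated arrays and 9495 to 11476 on the vehicle-treated arrays. The 18S ribosomal RNA control read 1771 to 2187 on the EB-treated and 661 to 1222 on the vehicle-treated arrays at 24 h. In whole tissue, fewer cells of a type and less RNA per cell cannot be told apart.

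EB-treated and vehicle-treated hypothalami differed in few splicing regulators, and at 2 of the 5 times. At 3 h, 3 probe sets of Srsf1 and Srsf2 were lower after EB, and at 24 h 5 probe sets were lower and 1 was higher. Calls were made with limma on log2 signals at an adjusted p under 0.05, adjusted over all 27022 probe sets tested. No member passed at 1 h, 6 h or 12 h, beside 0.00370%, 0% and 0% of all probe sets, while 16 (12.2%), 7 (5.34%) and 17 (13%) of the 131 members had an unadjusted p under 0.05, beside 8.63%, 6.02% and 6.57% of all probe sets. Applied to the deposited signals, the two-factor test that the methods describe, with its p-values adjusted the same way, called 0, 0 and 4 members at these times, the 4 all lower, beside 1.87% of all probe sets lower in that test at 12 h. The median log2 difference over the 131 members stayed near 0 at every time, between -0.03 at 24 h and 0.00 at 3 h, beside -0.01 at 24 h and 0.05 at 3 h for all probe sets.

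**Figure D1:**
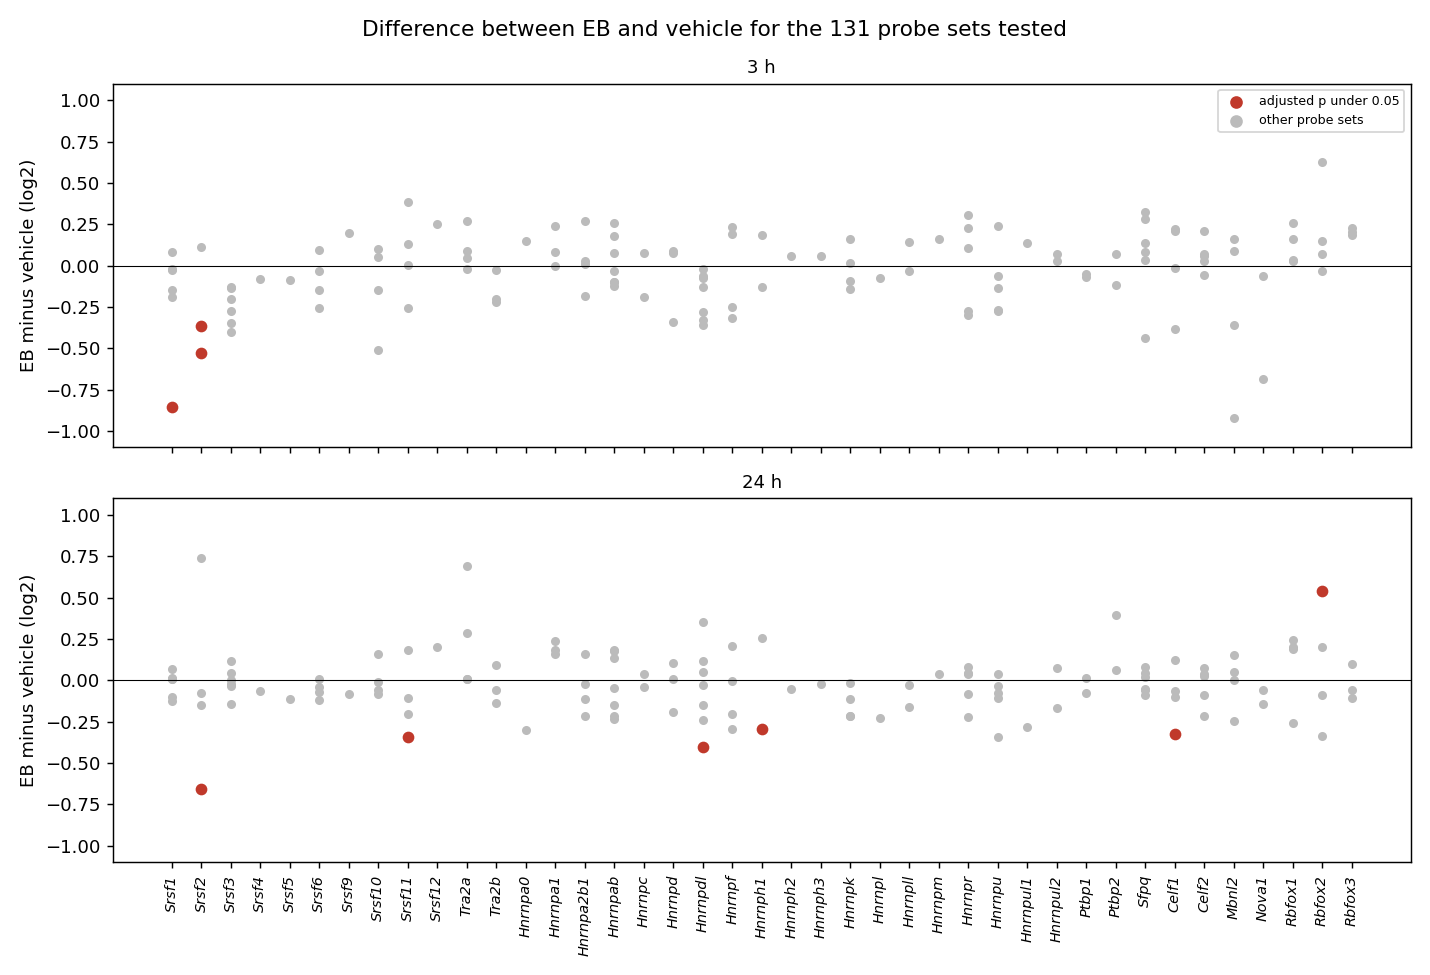
Difference between EB-treated and vehicle-treated hypothalami (log2 of scaled signal, y axis) for each of the 131 tested probe sets, grouped by gene (x axis), at 3 h and at 24 h. Red points passed the test: 3 at 3 h, all below 0, and 6 at 24 h, of which 1, a Rbfox2 probe set, lies above 0.

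At 3 h the lower probe sets belonged to Srsf1 and Srsf2, which encode the SR proteins historically called SF2/ASF and SC35. Of the members, 3 were lower and 0 higher, beside 0.377% and 0.0962% of all probe sets. All 3 were among the 39 tested SR and Tra2 probe sets, of which 15 had an unadjusted p under 0.05, as did 38 of all 131 members (29%) and 12.8% of all probe sets. None of the 56 hnRNP, 10 Ptbp and Sfpq, or 26 Rbfox, Nova, Celf and Mbnl probe sets passed.

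The Srsf1 probe set 1452430_s_at read 299, 216 and 186 in the EB-treated animals at 3 h, against 394, 485 and 372 in vehicle-treated controls. The groups did not overlap, and the third EB-treated animal was the lowest of the 6. The log2 difference was -0.85 ± 0.132 (SE, n = 3 and 3, limma adjusted p = 0.00108), a fold of 0.553. The call held when any 1 of these 6 arrays was left out, and it was lost in a fit of these arrays alone (adjusted p = 0.114) and in the methods' test (0.0542). The other 5 tested Srsf1 probe sets showed no such drop: their differences ran from -0.19 for 1453722_s_at to 0.08 for 1428099_a_at, and none passed.

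Srsf2 had 2 lower probe sets at 3 h. Probe set 1415807_s_at read 435, 406 and 311 after EB, against 559.6, 514 and 575 after vehicle, again with no overlap (log2 -0.53 ± 0.0957, SE, limma adjusted p = 0.00623). Probe set 1452439_s_at read 1268, 1266 and 927 after EB, against 1522, 1448 and 1450.4 after vehicle (log2 -0.37 ± 0.0819, SE, limma adjusted p = 0.0305). In both, the third EB-treated animal lay well below the other 2, and without it neither passed (adjusted p = 0.0933 and 0.265). The call for 1452439_s_at was also lost without vehicle-treated animal 1, 2 or 3 (0.114, 0.0847 and 0.0535). That same animal was lowest for a Srsf2 probe set that did not pass, 1427504_s_at, at 2088, 2131 and 1397 after EB, against 2319, 2284 and 2491 after vehicle. Of the 4 tested Srsf2 probe sets, 3 were below 0 and 1427816_at was at 0.11.

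At 1 h the differences of Srsf1 1452430_s_at and Srsf2 1415807_s_at were below 0 too, but not past the threshold, and probe sets of either gene had both signs then (from -0.40 to 0.09 for Srsf1 and from -0.34 to 0.05 for Srsf2). Srsf1 1452430_s_at read 359.6, 282 and 290.4 after EB and 441, 409.5 and 377 after vehicle at 1 h, with no overlap (log2 -0.40 ± 0.132, SE). At 6 h it read 217, 269.9 and 243 after EB and 294, 303 and 269 after vehicle, where the groups met (log2 -0.25). At 12 h the sign turned, with 259, 223 and 232 after EB and 184, 232 and 198 after vehicle (log2 0.22), and at 24 h the levels were 337, 359 and 309 after EB and 361, 370.4 and 361 after vehicle (log2 -0.12). The difference between EB and vehicle itself varied over the 5 times for this probe set (F = 8.86, limma adjusted p = 0.0229). That call was lost without any 1 of 7 arrays (adjusted p from 0.0503 to 0.0660): vehicle at 3 h animal 2, EB at 3 h animal 3, animal 1 of either treatment at 12 h, vehicle at 24 h animal 1 or 2, or EB at 24 h animal 1. For Srsf2 1415807_s_at the differences at 1, 6, 12 and 24 h were -0.34, -0.22, 0.00 and -0.08 on the log2 scale. It was the only member that passed when EB and vehicle were compared over all 5 times together (log2 -0.23 ± 0.0428, SE, limma adjusted p = 0.0233), with 1 lower and 0 higher beside 0.0555% and 0.0185% of all probe sets. That call was narrow: it was lost when any 1 of 4 arrays was left out, vehicle at 1 h animal 1 (adjusted p = 0.0509), vehicle at 3 h animal 3 (0.0507), EB at 6 h animal 1 (0.0548) or vehicle at 24 h animal 2 (0.0504).

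**Figure D2:**
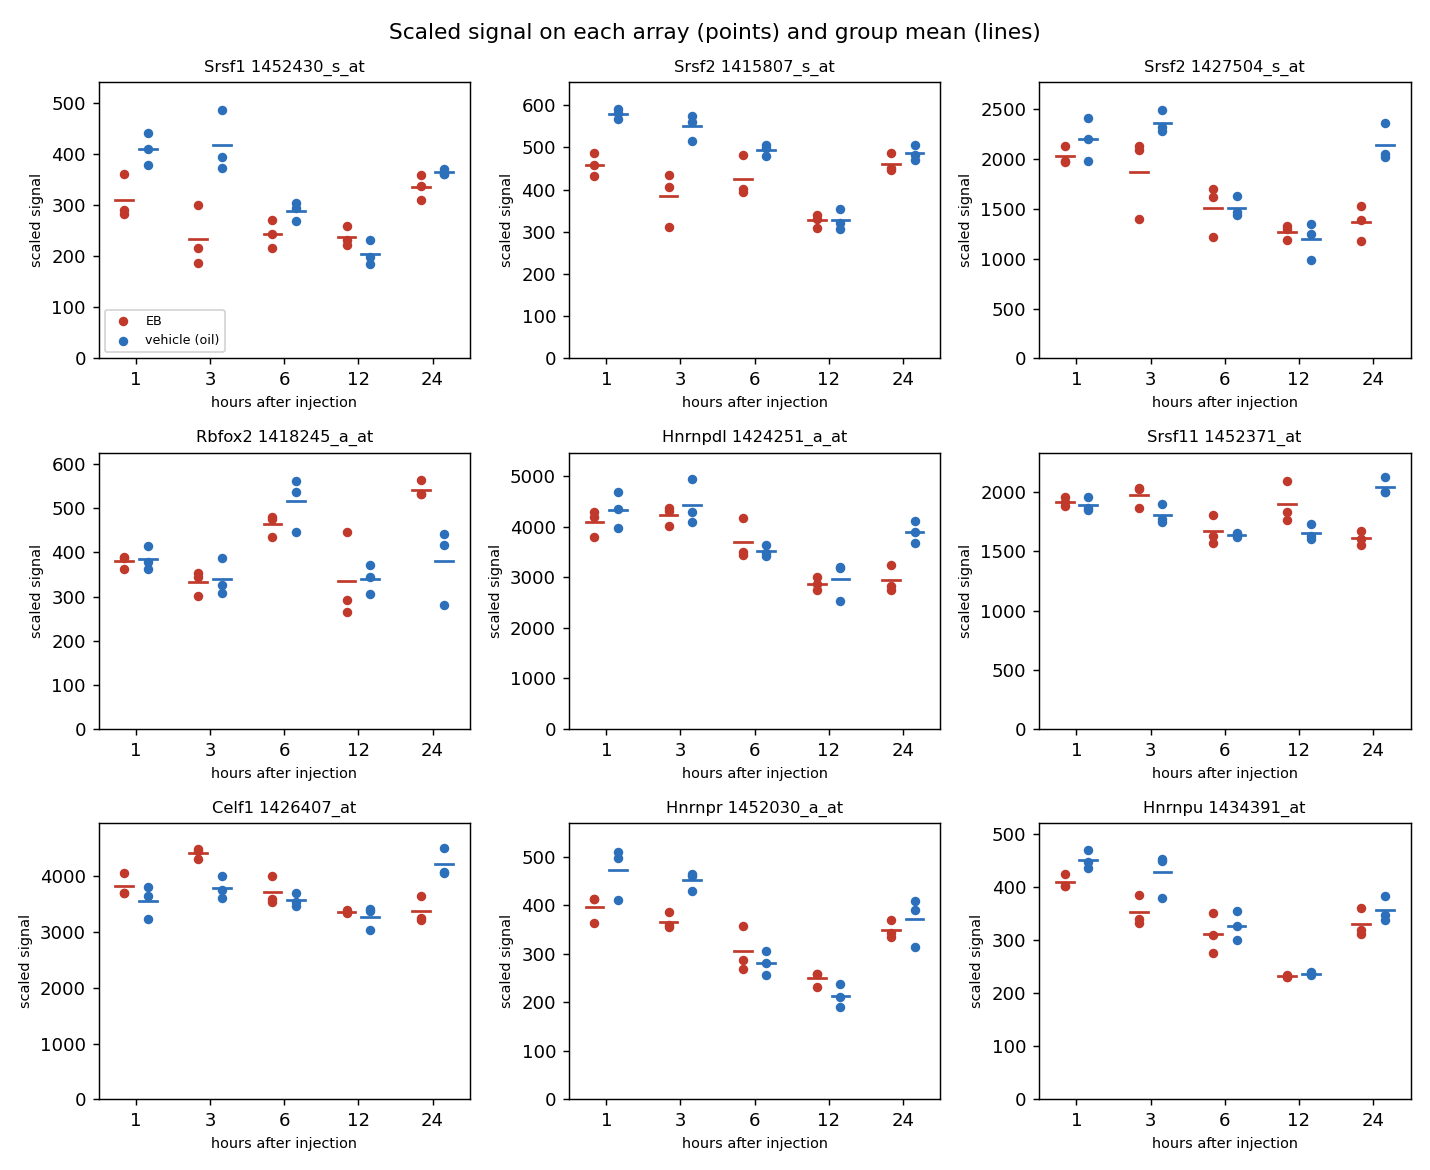
Scaled signal (y axis) of 9 probe sets on every array, by hours after injection (x axis), with EB-treated animals left of vehicle-treated animals and a line at each group mean (n = 3). Srsf1 1452430_s_at at 3 h reads 186 to 299 after EB, below the 372 to 485 after vehicle, and the Hnrnpr and Hnrnpu probe sets are at their lowest at 12 h under both treatments.

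At 24 h, the lower probe sets belonged to 2 SR genes, 2 hnRNP genes and Celf1, and the higher one to Rbfox2. These 5 lower and 1 higher members stood beside 2.19% and 0.581% of all probe sets. By family, 2 of 39 SR and Tra2, 2 of 56 hnRNP and 1 of 26 Rbfox, Nova, Celf and Mbnl probe sets were lower, and none of the 10 Ptbp and Sfpq probe sets passed. Of the 6 calls, 1 and 2 were left without EB-treated animal 1 or 2, and 3 without vehicle-treated animal 1 or 3. Without scaling, where all probe sets together shifted by 0.22 on the log2 scale, 1 member was called higher and 0 lower, and this was the Rbfox2 probe set. With quantile normalization 1 was higher and 3 lower: the Rbfox2 call was lost (adjusted p = 0.0574), as were those of Celf1 and Hnrnph1, and the higher one was Hnrnpa1 1455305_x_at (log2 0.25, limma adjusted p = 0.0175), named here after its value was seen, which had not passed on scaled signals (log2 0.18, adjusted p = 0.142). The low leptomeningeal markers and the high 18S signal at this time moved with the treatment, and their part in these differences was not tested.

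The Srsf2 probe set 1427504_s_at read 1182, 1385 and 1528 in the EB-treated animals at 24 h, against 2049, 2021 and 2368 in vehicle-treated controls. No EB-treated value reached the vehicle range, and the log2 difference was -0.66 ± 0.133 (SE, limma adjusted p = 0.00466). Without EB-treated animal 1 the adjusted p was 0.0575. The 2 Srsf2 probe sets that were lower at 3 h did not pass at 24 h. Probe set 1415807_s_at read 450.0, 447 and 487 after EB at 24 h and 469, 482 and 506 after vehicle, where the groups overlapped. Probe set 1452439_s_at read 1168, 1221 and 1274 after EB and 1351, 1383 and 1326 after vehicle, with no overlap (log2 -0.15 ± 0.0819, SE, limma adjusted p = 0.392). A dim Srsf2 probe set, 1427816_at, had the opposite sign at 24 h (40.6, 38.5 and 35.9 after EB, 34.5, 22.9 and 15.3 after vehicle, log2 0.74), and its adjusted p was 0.186.

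Srsf11 encodes an SR-related nuclear protein. Its probe set 1452371_at read 1605, 1671 and 1549.7 after EB at 24 h, against 2002, 2129.8 and 1999 after vehicle (log2 -0.35 ± 0.0658, SE, limma adjusted p = 0.00293), and the call held when any 1 of these arrays was left out. At 3 and 12 h the differences were above 0, at 0.13 and 0.19, and the EB effect differed between times (F = 10.0, limma adjusted p = 0.0167), a call lost without vehicle at 24 h animal 1 or 2 (0.0634 and 0.0653) or EB at 24 h animal 1 (0.0679). Celf1 encodes a protein that binds GU-rich RNA in the nucleus and cytoplasm. Its probe set 1426407_at read 3254, 3204 and 3643 after EB at 24 h, against 4069, 4048 and 4504 after vehicle (log2 -0.32 ± 0.0700, SE, limma adjusted p = 0.00918). At 3 h the same probe set was higher after EB in every animal, at 4455, 4302 and 4490.2, against 3605, 3753 and 3998 after vehicle (log2 0.22), though without passing, and its EB effect also differed between times (F = 8.51, limma adjusted p = 0.0267), a call lost without any 1 of the vehicle arrays at 24 h or EB at 24 h animal 1 or 2 (0.0576 to 0.114). In all, 3 members, those of Srsf1, Srsf11 and Celf1, passed the test for a difference between times, beside 0.951% of all probe sets. The Celf1 call at 24 h was lost without vehicle-treated animal 3 (adjusted p = 0.0663) or EB-treated animal 1 or 2 (0.0646 and 0.0703).

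Of the hnRNP genes, Hnrnpdl encodes a relative of the AU-rich RNA binding protein hnRNP D, and Hnrnph1 a protein that binds runs of guanines. Hnrnpdl 1424251_a_at read 2753, 2829 and 3251 after EB at 24 h, against 3887, 3670.1 and 4115 after vehicle (log2 -0.40 ± 0.0907, SE, limma adjusted p = 0.0114). Hnrnph1 1415872_at read 2808, 2769.7 and 2859 after EB, against 3401, 3584 and 3374 after vehicle (log2 -0.30 ± 0.0709, SE, limma adjusted p = 0.0183). Neither pair of groups overlapped. Both calls lay near the threshold: the Hnrnpdl call was lost without vehicle-treated animal 1 or 3 or EB-treated animal 1 or 2 (adjusted p from 0.0518 to 0.0863), and the Hnrnph1 call without vehicle-treated animal 1 or 2 or EB-treated animal 1 or 2 (0.0597 to 0.0910).

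Rbfox2 encodes a splicing factor that binds the motif UGCAUG. Its probe set 1418245_a_at read 532, 564 and 531 after EB at 24 h, against 418, 441 and 282 after vehicle (log2 0.54 ± 0.148, SE, limma adjusted p = 0.0416). The third vehicle-treated animal was the lowest, and without it the difference was 0.34 with an adjusted p of 0.279. The call was also lost without vehicle-treated animal 1 (0.0602) or EB-treated animal 1, 2 or 3 (0.115, 0.159 and 0.0739). The other 3 tested Rbfox2 probe sets did not pass, and the lowest difference among the 4 was -0.33. No probe set of Rbfox1 or of Rbfox3, the gene of the neuronal marker NeuN, passed at 24 h, with differences from -0.26 to 0.24 and from -0.10 to 0.10.

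Probe sets of one gene were seldom called together between EB and vehicle, where few were called at all. Of the 41 genes, 31 had more than 1 tested probe set. Both genes called at 3 h and all 6 called at 24 h were among these 31. Each of them also had a tested probe set of the opposite sign, and none had all its probe sets called. Opposite signs were not particular to the called genes: most of the 31 genes without a call also had both signs at these times. The share of genes with both signs over the whole array is not given here. Some opposite values were small, such as the highest Srsf1 difference at 3 h (0.08). At 24 h the span was widest for Srsf2, from -0.66 to 0.74, and for Rbfox2, from -0.33 to 0.54, and it was -0.40 to 0.35 for Hnrnpdl, -0.35 to 0.18 for Srsf11, -0.32 to 0.13 for Celf1 and -0.30 to 0.26 for the 2 Hnrnph1 probe sets. The probe sequences and their place in the transcripts were not used here, so which transcripts each probe set reads was not tested.

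More splicing regulators changed with time after injection than with EB. In vehicle-treated animals, 67 of the 131 probe sets (51.1%) changed over the 5 times, beside 34.1% of all probe sets. By family these were 34 of 56 hnRNP, 19 of 39 SR and Tra2, 6 of 10 Ptbp and Sfpq and 8 of 26 Rbfox, Nova, Celf and Mbnl probe sets. The largest F belonged to Hnrnpr 1452030_a_at (F = 37.9, limma adjusted p = 2.79e-08), Hnrnpu 1434391_at (F = 32.7) and Srsf11 1439095_at (F = 26.2). Hnrnpr binds RNA in the nucleus and in axons, and Hnrnpu, also called SAF-A, binds RNA and nuclear DNA.

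On scaled signals, the lowest level fell most often at 12 h. Of the 67 probe sets, 35 (52.2%) had their lowest mean at 12 h in EB-treated animals and 41 (61.2%) in vehicle-treated animals. Among all 9209 probe sets that changed over time in vehicle-treated animals, these shares were 23.6% and 26.9%. The EB-treated animals were not used to pick the 67, though their arrays too were brighter at 12 h before scaling. The direction of change at 12 h depends on that scaling, as given below.

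**Figure D3:**
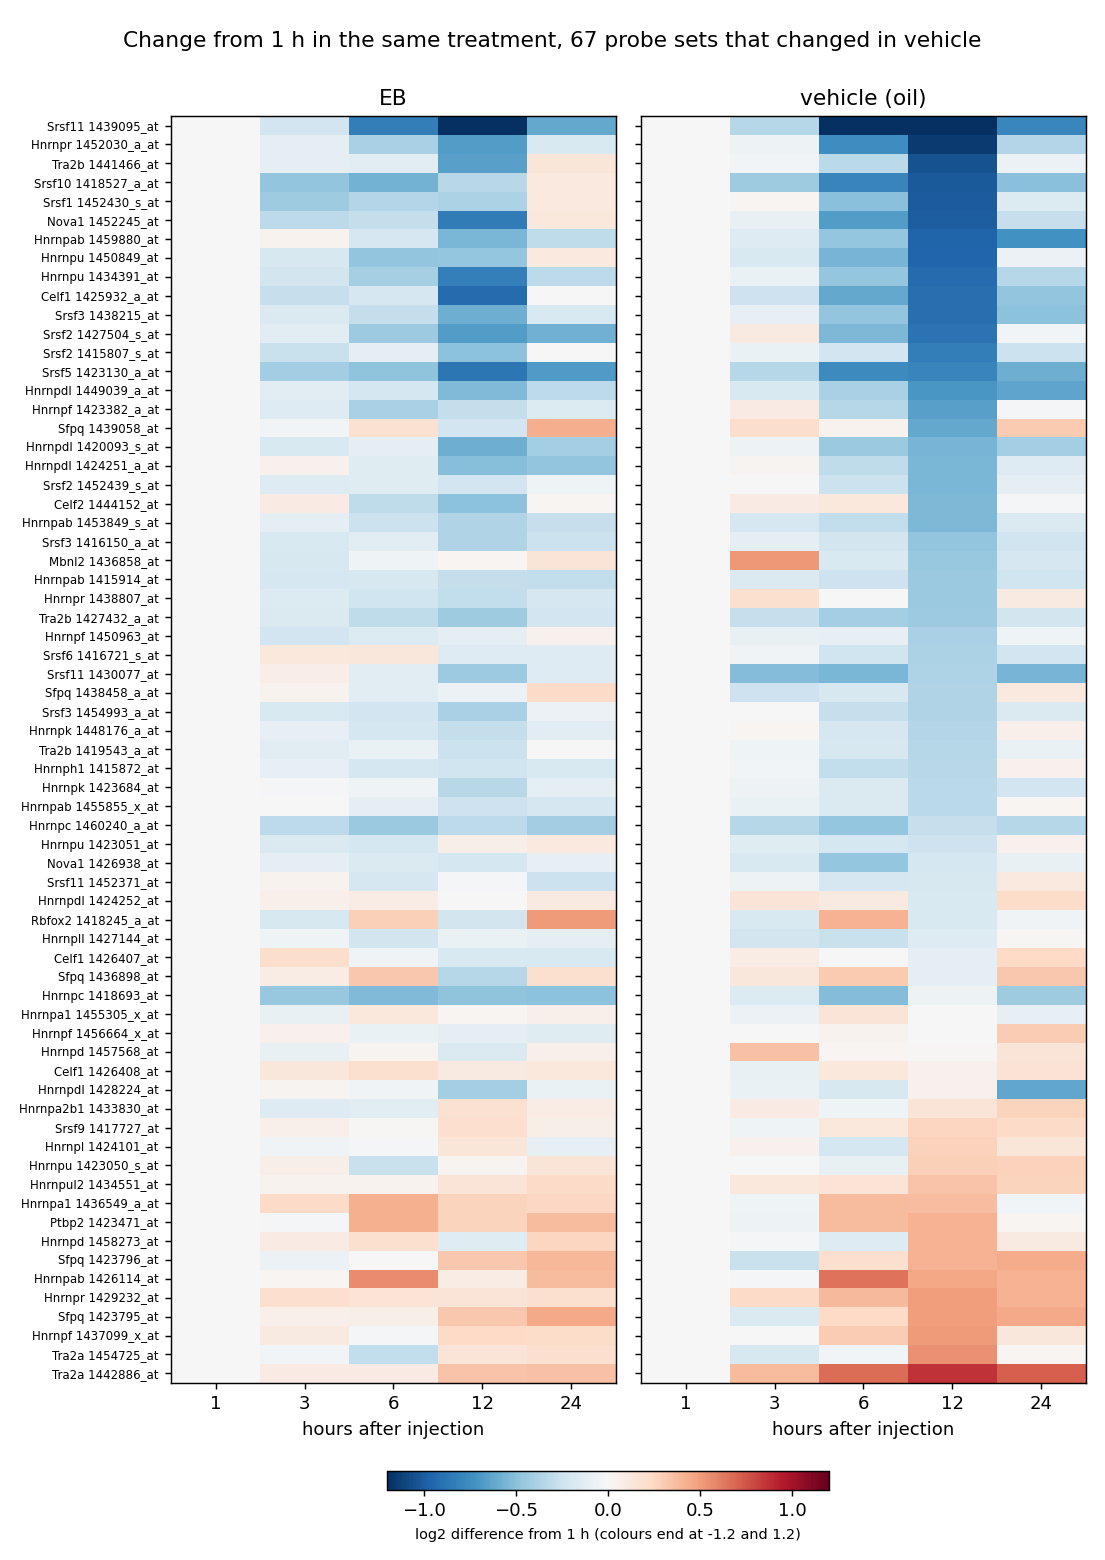
Log2 difference of the mean scaled signal from 1 h (colour, ending at ±1.2) for the 67 probe sets that changed over time in vehicle-treated animals (rows), by hours after injection (columns), with EB-treated animals left of vehicle-treated animals. The 12 h columns hold the most blue: 35 of the 67 are at their lowest then under EB and 41 under vehicle.

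Since 12 h stood out, it was set against 1 h, a comparison added after the data were seen. In EB-treated animals 31 probe sets of 18 genes were lower and 4 higher at 12 h than at 1 h, beside 7.49% and 8.69% of all probe sets. In vehicle-treated animals 42 probe sets of 21 genes were lower and 17 of 14 genes higher, beside 12.0% and 18.7%. The lower calls took 23.7% of the members under EB and 32.1% under vehicle, and the higher calls 3.05% and 13%. The same 28 probe sets of 16 genes were lower under both treatments, which is 21.4% of the members tested, 90.3% of the 31 under EB and 66.7% of the 42 under vehicle. Among all probe sets 1581 were lower under both, which is 5.85% of those tested, 78.2% of the lower ones under EB and 48.9% under vehicle. Of the members 1 (Sfpq 1423795_at) was higher under both, beside 6.14% of all probe sets, and none was called in opposite directions. Without EB at 1 h animal 2, 23 of the 35 calls under EB were left. The median log2 difference of the members was -0.12 under EB and -0.12 under vehicle, beside 0.05 and 0.09 for all probe sets.

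These differences are relative to the median probe set of each array, and the scaling decides their direction. In the deposited signals, without scaling, all probe sets together stood 0.72 (EB) and 0.81 (vehicle) higher on the log2 scale at 12 h than at 1 h, and member calls were 97 higher and 1 lower under EB and 94 higher and 2 lower under vehicle. With quantile normalization they were 1 higher and 31 lower under EB and 14 higher and 52 lower under vehicle. Most members were bright. When all tested probe sets were split by mean signal into 4 bins of near equal size, 11.2% of the brightest bin were lower and 11.3% higher under EB, and 14.5% lower and 24.5% higher under vehicle. In the dimmest bin 5.4% were lower and 3.18% higher under EB, and 10.7% lower and 7.89% higher under vehicle. Of the 88 members in the brightest bin, 22 (25%) were lower and 2 higher under EB, and 28 (31.8%) were lower and 11 higher under vehicle.

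**Figure D4:**
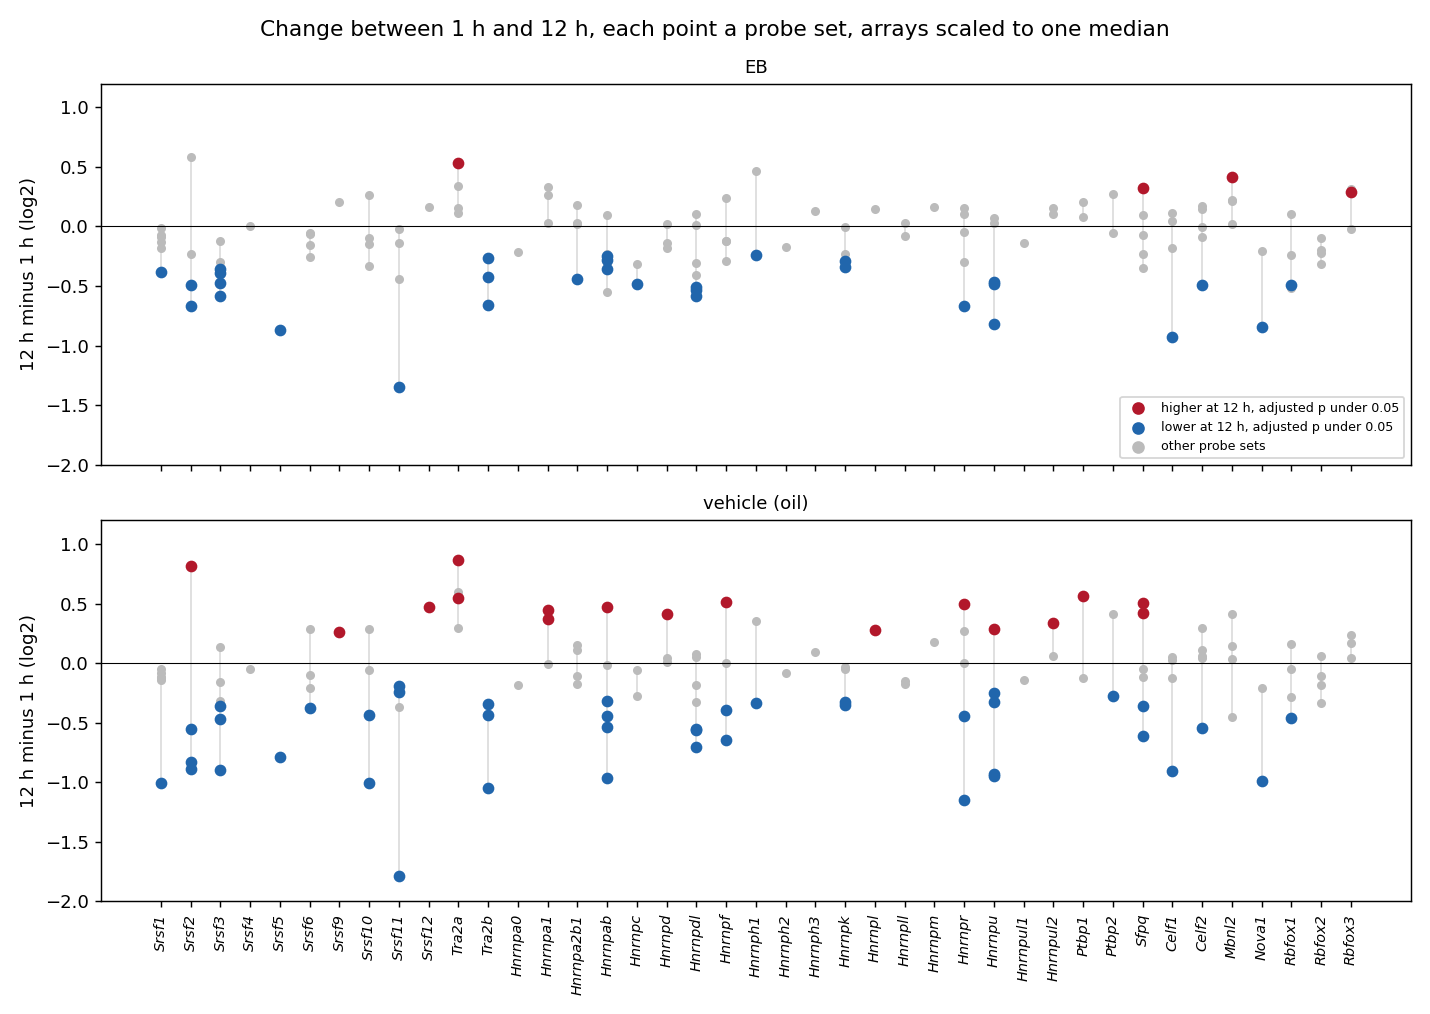
Difference between 12 h and 1 h (log2 of scaled signal, y axis) for each of the 131 tested probe sets, grouped by gene (x axis), in EB-treated animals (upper panel) and vehicle-treated animals (lower panel). Blue points were lower (31 under EB, 42 under vehicle), red points higher (4 and 17), and grey points did not pass.

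Of the 39 SR and Tra2 probe sets, 12 were lower and 1 higher at 12 h under EB (median log2 -0.15), and 17 were lower and 5 higher under vehicle (median -0.19). The largest drop was in Srsf11 1439095_at, which read 27.5, 36.5 and 31.1 at 12 h and 70.7, 91.4 and 79.7 at 1 h in EB-treated animals (log2 -1.35 ± 0.196, SE, limma adjusted p = 3.37e-05). In vehicle-treated animals it read 31.5, 30.1 and 28.3 at 12 h and 121, 117 and 78.4 at 1 h (log2 -1.79 ± 0.196, SE, limma adjusted p = 1.35e-07). Without scaling it was still lower, by log2 -0.68 under EB and -1.07 under vehicle. By 24 h it stood at 52.3, 52.8 and 52.4 after EB and 46.2, 70.3 and 67.7 after vehicle, between its levels at 12 h and those at 1 h. This probe set was dim, and its 12 h readings lay not far above the filter (a signal of about 21.9). Of the 4 tested Srsf11 probe sets, 1 was lower at 12 h under EB and 3 under vehicle. The smallest drops were -0.02 under EB and -0.19 under vehicle.

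Srsf5, whose protein is also known as SRp40, was measured by 1 tested probe set, 1423130_a_at. It read 1666, 1577 and 1775 at 12 h and 3172, 3166 and 2827 at 1 h under EB (log2 -0.87 ± 0.124, SE, limma adjusted p = 2.66e-05). Under vehicle it read 1816, 1673 and 1892 at 12 h and 3094, 3268 and 2929 at 1 h (log2 -0.79). At 24 h it was still low, at 1861, 1901 and 1954 after EB and 2049, 2057 and 2069.5 after vehicle. Tra2b, whose protein favours exons with GAA-rich enhancers, had all 3 of its tested probe sets lower at 12 h under both treatments, from -0.66 to -0.26 under EB and from -1.05 to -0.34 under vehicle. The EB call for 1441466_at was lost without EB at 1 h animal 2 or 3 or EB at 12 h animal 1 (adjusted p = 0.138, 0.166 and 0.313). Srsf3 had 4 of 6 lower under EB and 3 of 6 under vehicle.

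Srsf1 and Srsf2, the genes with lower probe sets after EB at 3 h, also had probe sets that fell by 12 h. Srsf1 1452430_s_at read 184, 232 and 198 at 12 h and 441, 409.5 and 377 at 1 h under vehicle, a fold of 0.499 (limma adjusted p = 2.27e-06), and 1 of the 6 Srsf1 probe sets was lower under each treatment. Of the 4 tested Srsf2 probe sets, 2 were lower under EB, and 3 were lower and 1 higher under vehicle. Srsf2 1427504_s_at is not one of the probe sets that passed between EB and vehicle at 3 h. It read 1330.3, 1192 and 1298 at 12 h and 2128, 1972 and 1981 at 1 h under EB (log2 -0.67 ± 0.133, SE, limma adjusted p = 0.000933). Under vehicle it read 1347, 993 and 1250.4 at 12 h and 2206, 2415 and 1979 at 1 h. At 24 h the vehicle-treated animals read 2049, 2021 and 2368, again near their 1 h range, while the EB-treated animals read 1182, 1385 and 1528, near their 12 h range. That is the difference between EB and vehicle at 24 h described above.

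Tra2a went the other way from Tra2b. Its 4 tested probe sets were all above 0 at 12 h against 1 h, from 0.12 to 0.53 under EB, where 1429680_at passed but not once any 1 of the 6 arrays was left out (adjusted p from 0.0639 to 0.130), and from 0.30 to 0.86 under vehicle, where 2 passed. Tra2a 1442886_at read 309, 363 and 288 at 12 h and 183, 179.8 and 163 at 1 h under vehicle (log2 0.86 ± 0.147, SE, limma adjusted p = 6.56e-05). Under EB it read 262, 355 and 252 at 12 h and 229, 202 and 249 at 1 h, a smaller difference that did not pass.

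Of the 56 hnRNP probe sets, 15 were lower and 0 higher at 12 h under EB (median log2 -0.14), and 18 were lower and 9 higher under vehicle (median -0.10). Hnrnpu 1434391_at read 234, 231 and 231 at 12 h and 402, 403 and 426 at 1 h under EB (log2 -0.82 ± 0.0910, SE, limma adjusted p = 1.11e-06). Under vehicle it read 234, 240.1 and 238 at 12 h and 437, 447 and 470.0 at 1 h (log2 -0.93 ± 0.0910, SE, limma adjusted p = 2.69e-08). The 6 values at 12 h lay between 231 and 240.1, and the 6 at 1 h between 402 and 470.0. Hnrnpr 1452030_a_at read 232, 258 and 258 at 12 h and 413, 412 and 364 at 1 h under EB (log2 -0.67 ± 0.111, SE, limma adjusted p = 0.000158). Under vehicle it read 212, 239 and 191 at 12 h and 411, 511 and 498 at 1 h (log2 -1.15 ± 0.111, SE, limma adjusted p = 2.42e-08). Without scaling, Hnrnpr was lower under vehicle (log2 -0.43) and at 0.0023 under EB.

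Within several genes, not all of them hnRNP, probe sets were called both ways under vehicle. Under vehicle, 25 genes had at least 1 call at 12 h against 1 h among the 31 with several tested probe sets, and in 6 of them, Hnrnpab, Hnrnpf, Hnrnpr, Hnrnpu, Sfpq and Srsf2, some probe sets were called lower and others higher. In 3 genes all tested probe sets were called. Of all probe sets, 18.7% were higher and 12.0% lower in this comparison. The share of genes over the whole array that were called both ways is not given here. Hnrnpr 1429232_at, for example, read 209.9, 163 and 201 at 12 h and 139.8, 119 and 146 at 1 h under vehicle (log2 0.50 ± 0.139, SE, limma adjusted p = 0.00695), opposite in sign to 1452030_a_at. Under EB 21 genes had a call, none was called both ways, and Tra2b was the 1 gene with all its probe sets called.

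Sfpq, a paraspeckle protein that binds DNA and RNA, was the 1 gene with a probe set higher under both treatments. Its probe set 1423795_at read 1683, 1689 and 1350.5 at 12 h and 1175, 1355 and 1229 at 1 h under EB (log2 0.32 ± 0.112, SE, limma adjusted p = 0.0464). Under vehicle it read 1645, 1933 and 1610.3 at 12 h and 1264, 1098 and 1292 at 1 h (log2 0.50 ± 0.112, SE, limma adjusted p = 0.00110). Under EB the 2 times overlapped narrowly, at 1350.5 and 1355, and the call was lost without EB at 1 h animal 1 or 3 or EB at 12 h animal 1 or 2 (adjusted p from 0.112 to 0.179), while under vehicle they did not overlap. Of its 6 tested probe sets, 2 were higher and 2 lower under vehicle. Ptbp1 and Ptbp2, repressors of neuronal exons, had 1 higher and 1 lower probe set under vehicle and no call under EB.

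Of the 26 Rbfox, Nova, Celf and Mbnl probe sets, 4 were lower and 2 higher at 12 h under EB, beside 7.49% and 8.69% of all probe sets. Under vehicle 4 were lower and 0 higher, beside 12.0% and 18.7%. The lower ones included Nova1 1452245_at (log2 -0.84 ± 0.212 under EB and -0.99 ± 0.212 under vehicle, SE) and Celf1 1425932_a_at (-0.93 ± 0.194 and -0.91 ± 0.194, SE). Both were dim, with mean log2 signals of 6.13 and 5.33 and the filter at 4.45. They were the only ones called of 2 Nova1 and 4 Celf1 probe sets. The highest Nova1 difference was -0.21 under either treatment, and the highest Celf1 difference 0.11 under EB and 0.06 under vehicle. Nova1 encodes a neuronal splicing factor that binds YCAY motifs. Mbnl2 1433754_at, of a muscleblind gene, was higher under EB, at 461, 429.9 and 490.3 at 12 h and 368, 315 and 355 at 1 h (log2 0.41 ± 0.0999, SE, limma adjusted p = 0.00528). The 4 tested Mbnl2 probe sets ran from 0.02 to 0.41 under EB and from -0.45 to 0.41 under vehicle, where none passed. Rbfox3 1456149_at was higher under EB as well (log2 0.29 ± 0.0948, SE, limma adjusted p = 0.0379), but not once any 1 of the 6 arrays was left out (0.0632 to 0.107). The 3 tested Rbfox3 probe sets ran from -0.02 to 0.32 under EB and from 0.04 to 0.23 under vehicle, where none passed.

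Some cell type markers were also called between 1 and 12 h. Of all probe sets 8.69% were higher and 7.49% lower under EB, and 18.7% and 12.0% under vehicle. Several of the counts below lie near these shares. Of the microglia and macrophage markers 1 of 10 tested was higher at 12 h under EB (median log2 0.31) and 6 of 10 under vehicle (median 0.56). Of the pan-neuronal markers 5 of 12 were lower and 0 higher under EB, and 4 were lower and 3 higher under vehicle. Of 13 hypothalamic neuron markers 3 were higher and 0 lower under EB, and 3 were higher and 1 lower under vehicle. Of 8 markers of astrocytes and radial glia 3 were higher and 1 lower under EB, and 4 were higher and 1 lower under vehicle. Of 6 oligodendrocyte lineage markers 0 passed under EB and 3 were higher under vehicle, and of 7 endothelial markers 0 passed under EB and 1 was higher under vehicle. Of 7 mural cell markers 2 were lower under EB and 1 under vehicle. None of 17 leptomeningeal or 4 choroid plexus markers passed. The part of these markers in the 12 h values was not tested.

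At 24 h the members' median log2 difference from 1 h was 0.02 under EB and 0.02 under vehicle, and fewer probe sets were called than at 12 h. Under EB 7 probe sets were higher and 14 lower at 24 h, beside 4.71% and 5.51% of all probe sets, and under vehicle 9 were higher and 11 lower, beside 4.97% and 1.80%. Under EB all 17 leptomeningeal markers were lower at 24 h than at 1 h (median log2 -2.95), as were 4 of 7 mural, 4 of 12 pan-neuronal, 3 of 10 microglia and macrophage, 2 of 13 hypothalamic neuron, 2 of 8 astrocyte and radial glia and 1 of 7 endothelial markers, while 2 hypothalamic neuron and 1 astrocyte and radial glia markers were higher. Under vehicle 0 leptomeningeal markers passed, 1 mural marker was lower, and 3 astrocyte and radial glia, 1 pan-neuronal and 1 endothelial markers were higher. The 18S control averaged 2043 at 24 h and 903 at 1 h under EB, and 1000.2 at 24 h and 777 at 1 h under vehicle (n = 3 each). Their part in the 24 h values was not tested. Of the members, lower under both treatments were 6 probe sets of 5 genes, Hnrnpdl (2), Hnrnpu, Srsf3, Srsf5 and Srsf11, and higher under both were 4 probe sets of 3 genes, Hnrnpab, Hnrnpul2 and Sfpq (2). The share of all probe sets called under both treatments at 24 h is not given here, so these 2 counts have no background. Srsf5 1423130_a_at stood at log2 -0.68 ± 0.124 under EB and -0.59 ± 0.124 under vehicle (SE), and Sfpq 1423795_at at 0.46 ± 0.112 and 0.45 ± 0.112 (SE). The 24 h calls were sensitive to single arrays: of the 21 under EB, 11 and 8 were left without EB at 1 h animal 1 or 2, and 11, 10 and 13 without EB at 24 h animal 1, 2 or 3. Of the 20 under vehicle, 4 were left without vehicle at 1 h animal 2 or vehicle at 24 h animal 1, and 7 without vehicle at 1 h animal 3 or vehicle at 24 h animal 2. Of the probe sets called under both treatments, Srsf5 1423130_a_at and Hnrnpdl 1420093_s_at kept both calls whichever array was left out. Without scaling, the calls were 0 higher and 1 lower under EB and 0 higher and 22 lower under vehicle, where all probe sets together shifted by -0.25 on the log2 scale.

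The largest called rise at 24 h under EB was in Tra2a, and Srsf2 had the largest called drop after Srsf5 and Srsf11. Tra2a 1455933_at read 282, 194 and 259.6 at 24 h and 123, 122 and 139 at 1 h under EB (log2 0.92 ± 0.256, SE, limma adjusted p = 0.0198), a call lost without EB at 1 h animal 1 or 2 or EB at 24 h animal 1 or 3 (adjusted p from 0.0608 to 0.0957). Under vehicle this probe set was not called, and 1442886_at of the same gene was, at 268, 304 and 291 at 24 h and 183, 179.8 and 163 at 1 h (log2 0.71 ± 0.147, SE, limma adjusted p = 0.00406). Srsf2 1427504_s_at was lower at 24 h than at 1 h under EB (log2 -0.58 ± 0.133, SE, limma adjusted p = 0.00532). Hnrnpdl 1424251_a_at was lower under EB too (log2 -0.48 ± 0.0907, SE, limma adjusted p = 0.00107).

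Other genes of the splicing pathway were read from lists, each gene by its brightest probe set. Of 44 measured core spliceosome genes, 7 were higher and 1 lower at 12 h than at 1 h under EB, and 10 were higher and 3 lower under vehicle, with medians of 0.05 and 0.09 on the log2 scale, while the members' medians were below 0. All probe sets had medians of 0.05 and 0.09 too, with 8.69% higher and 7.49% lower under EB and 18.7% and 12.0% under vehicle. In a separate fit with 1 probe set per gene, the 41 member genes gave 9 calls under EB and 17 under vehicle. In the main fit, the brightest probe sets of the 31 member genes with several gave 1 higher and 7 lower under EB. Under vehicle they gave 3 higher and 10 lower. Of 7 SR protein kinases, which phosphorylate SR proteins, 2 were higher under EB, and 4 were higher and 1 lower under vehicle (Srpk1 0.33 and Srpk2 -0.31). Of 45 other splicing regulators, 7 were higher and 5 lower under EB, and 9 were higher and 6 lower under vehicle. Of 4 nuclear long RNAs, 2 were lower under both treatments, Malat1 (log2 -1.27 under EB and -1.57 under vehicle), a component of nuclear speckles where SR proteins gather, and Meg3 (-0.48 and -0.35).

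Between EB and vehicle these lists had no call at 1, 3, 6 or 12 h. At 24 h, 0.581% of all probe sets were higher and 2.19% lower. Of 44 core spliceosome genes 2 were higher (Snrpf 0.85 and Sf3b2 0.40 on the log2 scale) and 2 lower (Sf1 -0.40 and Prpf8 -0.32). Of 45 other regulators 4 were lower, Nono (-0.41), Pcbp4 (-0.34), Matr3 (-0.26) and Celf5 (-0.25), and 0 were higher. Nono encodes the usual partner of Sfpq, whose own 6 probe sets lay between -0.09 and 0.08 at that time. Of the nuclear long RNAs Meg3 was lower (-0.41), and no SR protein kinase passed. The calls in these lists were read on scaled signals, and whether they hold without scaling is not given here.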

How the data were processed

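The authors deposited one MAS5 signal intensity per probe set and array, on a linear scale. The sources used here give neither the MAS5 version nor any target scaling. All 30 sample columns were used and 0 were set aside. Signals were multiplied so that every array had the mean of the array medians (41.3) as its median, values under 1 were set to 1, and log2 was taken. The 64 control probe sets and the dimmest 40% by mean log2 signal (below a signal of about 21.9) were left out. A limma model (version 3.58.1, R 4.3.3) with 10 group means and a trend in eBayes covered all arrays, with Benjamini-Hochberg adjustment over 27022 probe sets and a threshold of 0.05. With 3 against 3 arrays an exact permutation test cannot go below p = 0.1, so none was used. The number of arrays limits the precision.

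Gene symbols are those of the platform annotation, and all 41 matched RefSeq. The members and gene lists were chosen with earlier results of these data known. Probe sets named with values are up to 10 higher and 10 lower members in each comparison, key genes by their brightest probe set, and genes whose probe sets disagree. The comparison of 12 h with 1 h was added after the data were seen. Replicate numbers did not pair arrays: the 15 correlations of deviations between arrays of the same number ran from -0.13 to 0.088. Alternatives covered scaling, filter, floor, array weights, trend, a fit of the compared arrays alone, the two-factor test of the methods, the replicate block, 1 probe set per gene and leaving out each array. The fit was tested on simulated data. Figures were drawn with matplotlib 3.10.9.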

Additional observations from a re-analysis of the deposited data

Results flagged for a closer look

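For 3 probe sets the difference between EB-treated and vehicle-treated animals itself differed between the 5 times, in limma's test of the interaction. These were Srsf11 1452371_at (F = 10.0, adjusted p = 0.0167), Srsf1 1452430_s_at (F = 8.86, adjusted p = 0.0229) and Celf1 1426407_at (F = 8.51, adjusted p = 0.0267). For Srsf11 the log2 difference was 0.02, 0.13, 0.02, 0.19 and -0.35 at 1, 3, 6, 12 and 24 h. For Celf1 it was 0.10, 0.22, 0.05, 0.04 and -0.32, and for Srsf1 -0.40, -0.85, -0.25, 0.22 and -0.12. Leaving out vehicle at 24 h animal 1 or 2, or EB at 24 h animal 1, took all 3 calls away, and for Srsf11 the adjusted p was then 0.0634, 0.0653 and 0.0679. The Celf1 call was also lost without vehicle at 24 h animal 3 or EB at 24 h animal 2, and the Srsf1 call without vehicle at 3 h animal 2, EB at 3 h animal 3, vehicle at 12 h animal 1 or EB at 12 h animal 1. Over all settings run the adjusted p ranged from 0.00330 to 0.843 for Srsf11, from 0.00330 to 0.178 for Srsf1 and from 0.00556 to 0.879 for Celf1.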

How the results depend on the processing

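Counts of calls depended on the scaling of the arrays, on array weights, on reading 1 probe set per gene and on single arrays, with 3 animals per group. EB against vehicle at 3 h (3 calls) gave 5 without scaling, 7 with quantile normalization, 1 with array weights, and 0 with the methods' test, with 1 probe set per gene or with only the arrays compared. At 12 h the methods' test gave 4 in place of 0. At 24 h (6 calls) there was 1 without scaling, where all probe sets shifted by 0.22, 13 with array weights, 10 with only the arrays compared and 0 with the methods' test. Averaged over times (1 call) there were 0 without scaling, without trend, with the methods' test or with 1 probe set per gene, 3 with the 60% filter, the floor of 16, array weights or the replicate block, and 4 with quantile normalization. For the difference between times (3 calls) there were 1 without scaling or without filter, 9 with array weights, and 0 without trend or with the methods' test. Change over time in vehicle-treated animals (67 calls) gave 124 without scaling or with the methods' test and 22 with 1 probe set per gene (41 tested). At 24 h against 1 h, EB (21 calls) gave 1 without scaling, 0 with the methods' test and 8 with 1 probe set per gene, and vehicle (20 calls) gave 11 without filter or trend, 12 with the methods' test and 6 with 1 probe set per gene. At 12 h against 1 h, EB (35 calls) gave 98 without scaling, 98 with the methods' test and 9 with 1 probe set per gene, and vehicle (59 calls) gave 96, 103 and 17.

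Leaving out 1 array at a time gave 0 to 0 calls for EB against vehicle at 1, 6 and 12 h, 1 (without EB animal 3) to 6 (without EB animal 1) at 3 h, 1 (without EB animal 1) to 5 at 24 h, 0 to 3 averaged over times (2 without EB at 1 h animal 1, EB at 6 h animal 2 or vehicle at 12 h animal 2, 3 without EB at 3 h animal 1) and 0 to 4 for the difference between times. It gave 58 to 72 for change over time under vehicle, 8 to 15 (EB) and 4 to 15 (vehicle) at 24 h against 1 h, and 23 to 33 (EB) and 48 to 56 (vehicle) at 12 h against 1 h. With the replicate block, 12 h against 1 h under EB had 36 calls, 24 h against 1 h under vehicle 20 and change over time under vehicle 70, and apart from the averaged comparison no count moved by over 1.5 times.

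Without scaling (log2) and in the methods' test (signal units), signs turned at 24 h against 1 h under vehicle for Celf1 1426407_at (-0.058 and -96.6), Hnrnpul2 1434551_at (-0.032 and -17.4) and Srsf9 1417727_at (-0.071 and -23.8). At 12 h against 1 h under EB they turned for Hnrnpdl 1420093_s_at (0.089 and 80.3), Hnrnpr 1452030_a_at (0.0023 and 1.17), Srsf3 1438215_at (0.086 and 5.82), Tra2b 1441466_at (0.015 and 1.78) and, in the methods' test, Srsf2 1427504_s_at (3.31). Both settings leave arrays unscaled. The 10 probe sets with the largest F for change over time under vehicle passed in every setting that tested them. This says little of how firm they are, since they were picked by F in these same data. The F test also takes no account of direction. Without scaling and in the methods' test nearly all members passed it, and with 1 probe set per gene only brightest probe sets were tested.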
